A study of Mus musculus with 12 samples.

Results

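The oxidative phosphorylation subunit genes examined here are the nuclear genes that encode the proteins of the mitochondrial respiratory chain and of ATP synthase. They were taken by gene symbol from the deposited counts of mouse lung. Symbols that began with *Ndufa*, *Ndufb*, *Ndufc*, *Ndufs* or *Ndufv* and a digit, with *Uqcr*, with *Cox4* to *Cox8* or with *Atp5*, and the 4 symbols *Sdha* to *Sdhd*, gave 85 genes. Leaving out 2 symbols that carry "ps", the mark of a pseudogene, left 83 of the 16152 genes of the table. Of these, 38 belonged to complex I (NADH dehydrogenase), 4 to complex II (succinate dehydrogenase), 8 to complex III (cytochrome bc1), 16 to complex IV (cytochrome c oxidase) and 17 to complex V (ATP synthase). All 83 passed the filter on low counts and were tested.

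Complexes I and II take electrons from NADH and succinate, complex III passes them on to cytochrome c, and complex IV transfers them to oxygen. Complexes I, III and IV pump protons across the inner mitochondrial membrane, and complex V makes ATP as the protons flow back. Several complex IV subunits exist as a common form and as a form restricted to certain tissues, such as heart, skeletal muscle or brown fat.

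RNA was sequenced from whole lungs of wild-type C57Bl/6 mice at 2 embryonic time-points, E15.5 and E18.5, and 2 postnatal ones, P5 and P8, with 3 replicates of each. Birth falls between E18.5 and P5, and the mice carried no transgene and received no treatment. Mice of both sexes were used, and the replicates of a time-point were littermates, so the time-point and the litter cannot be told apart and the p-values measure the spread within a litter. The 12 libraries held between 41337443 and 53901957 counted reads, and the 8 lung marker genes summed to between 1375 and 3150 CPM (counts per 1000000 mapped reads) in the embryonic and between 14314 and 18551 CPM in the postnatal libraries.

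Several libraries stood apart in genes of tissues that lie next to the lung. The 7 brown fat genes summed to between 11.5 and 14.3 CPM in the 6 embryonic libraries, to 5.44, 29.2 and 142 CPM in P5 replicates 1, 2 and 3, and to 368, 744 and 21.2 CPM in P8 replicates 1, 2 and 3. Among them the defining gene *Ucp1* was above 0 in every library, and *Elovl3* was listed at 0 in 7 of 12. The brown fat genes did not all move the same way. From E18.5 to P5, 4 of the 6 tested rose, and 2 had negative changes that did not pass the test used below. Of all tested genes 35.4% rose and 35.7% fell. The 15 heart and skeletal muscle genes summed to 1211 and 1538 CPM in E15.5 replicates 1 and 2 and to 67.3 CPM in replicate 3, against 63.0 to 104 CPM at E18.5 and 153 to 618 CPM after birth. Of these genes *Tnnc2* was listed at 0 in every library. The 7 thymus genes reached 25.3 CPM in E15.5 replicate 2 and 144 and 280 CPM in P8 replicates 1 and 2, with at most 12.3 CPM elsewhere, and *Foxn1* was listed at 0 in 6 libraries.

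The subunit genes followed the same libraries. Of the 83 genes, 76 were highest in replicate 2 among the P8 libraries and 78 were lowest in replicate 3, where 37.0% and 36.1% of all 15994 tested genes were. At E15.5, 60 were highest in replicate 2 and 77 lowest in replicate 3 (41.4% and 34.1% of all genes), and at P5, 63 were highest in replicate 3 (34.3% of all genes). All 17 genes of the citric acid cycle and pyruvate dehydrogenase were also highest in P8 replicate 2 and lowest in P8 replicate 3. The part of brown fat, heart or thymus RNA in these orders was not tested. Results that rest on these libraries are given with and without them: 1 alternative left out P5 replicate 3 and P8 replicates 1 and 2, and another left out E15.5 replicates 1 and 2.

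Averaged over the 12 libraries, the level of a gene lay between 4.31 CPM (*Cox6a2*) and 1013 CPM (*Atp5b*, the catalytic beta subunit of ATP synthase), with 27 genes at 100 CPM or more and 8 under 10 CPM. Per kilobase of annotated exon, the median level at E18.5 was 34.0 CPM per kb in complex I, 49.1 in complex II, 66.9 in complex III, 60.2 in complex IV and 77.2 in complex V. *Cox6a1*, *Cox8a*, *Atp5a1* and *Atp5b* had the highest levels on this scale, at 258, 251, 240 and 239 CPM per kb over all libraries. *Atp5l*, a membrane subunit of ATP synthase, and *Ndufb2*, an accessory subunit of complex I, stood at 1.22 and 1.16 CPM per kb, far under their partner subunits. Only uniquely mapped reads were counted, so genes with near-identical copies may be undercounted, and the annotated exon lengths include long transcripts. Exons of 29 of the 83 genes overlap an exon of another annotated gene, 5 of them on the same strand, and since the sources do not state whether counting used the strand, their counts are uncertain to that extent. Among the genes named here, *Atp5o* overlaps a second annotated *Atp5o* gene, *Atp5g2* overlaps *Mir688* and *Ndufb2* overlaps *Gm42420* on the same strand. On the opposite strand the overlaps include *Atp5a1* with *Haus1*, *Atp5d* with *Cbarp*, *Atp5j* with *Gabpa*, *Atp5f1* with *Wdr77* and *Atp5l* with *Gm30934*. They also include *Ndufs1* with *Eef1b2*, *Ndufa4l2* with *Shmt2*, *Cox4i1* with *Emc8*, *Cox6a2* with *Itgad* and *Cox6c* with *Vps13b*.

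In CPM, most of the 83 genes were highest before birth: the highest mean CPM was at E15.5 for 45 genes, at E18.5 for 21, at P5 for 6 and at P8 for 11. For complex V these numbers were 12, 5, 0 and 0. The matching shares of all tested genes were not computed, so these numbers do not set the subunit genes apart. Without TMM scaling, as in these CPM, the median log2 fold change of all tested genes between E18.5 and P5 was -0.07. With TMM it was -0.0024. For P8 against E15.5 the medians were -0.09 without and -0.02 with TMM. The part of this shift in the numbers was not tested. Differences were tested with edgeR's quasi-likelihood test on the counts, with the Benjamini-Hochberg false discovery rate (FDR) taken over all 15994 tested genes and called under 0.05. In the 4 comparisons made, which share libraries with one another, 33 of the 83 genes passed in at least 1 and 50 in none, while 86.5% of all tested genes passed in at least 1.

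Across birth, from E18.5 to P5, 19 of the 83 subunit genes fell and 6 rose, while 35.7% of all tested genes fell and 35.4% rose. The median log2 fold change was -0.15 for the subunit genes and -0.0024 for all tested genes, and 74 of the 83 lay within 0.5 of no change on the log2 scale. Only 3 passed both the FDR and a 2-fold change (26.8% of all genes did): the complex IV genes *Cox4i2*, *Cox6a2* and *Cox8b*. A library outside a comparison, such as P8 replicate 3 here, acts on it only through the spread, scaling and filter of the shared fit. The count of falling genes depended on single libraries, that one included, and is not a measure of stability. It was 34 without P8 replicate 3, 12 without E18.5 replicate 2, 10 without E18.5 replicate 3 and 36 without the 3 libraries high in brown fat genes, and the share of all genes that fell stayed between 33.3% and 36.9% in these alternatives. The 7 erythroid genes, such as those of the globins, all rose across birth (median log2 fold change 2.01), and their sum went from between 4001 and 4744 CPM to between 11991 and 19666 CPM. The part of red cell RNA in the lower levels of the subunit genes was not tested. Since the lungs were sequenced whole, fewer cells rich in mitochondria and less subunit RNA per cell cannot be told apart in any of these changes.

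The genes that changed over this interval are given by complex, beside 35.7% of all tested genes that fell and 35.4% that rose. In complex V, 11 of 17 genes fell and none rose, with a median log2 fold change of -0.32. In complex I, 6 of 38 fell and 2 rose (median -0.11), in complex II 1 of 4 fell (median -0.22), and in complex III none of 8 passed with edgeR or DESeq2, nor had an unadjusted p under 0.05 (median -0.14). In complex IV, 1 of 16 fell and 4 rose (median 0.02). Without the 3 libraries high in brown fat genes, the genes that fell numbered 13 in complex I, 3 in complex II, 3 in complex III, 4 in complex IV and 13 in complex V. Without E18.5 replicate 3 they numbered 2, 0, 0, 0 and 8, and without E18.5 replicate 2 they numbered 3, 0, 0, 0 and 9. Without P8 replicate 3 they numbered 11, 3, 3, 3 and 14. The share of all genes that fell in these alternatives is the one given above, and the differences between complexes were not tested.

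**Figure D1:**
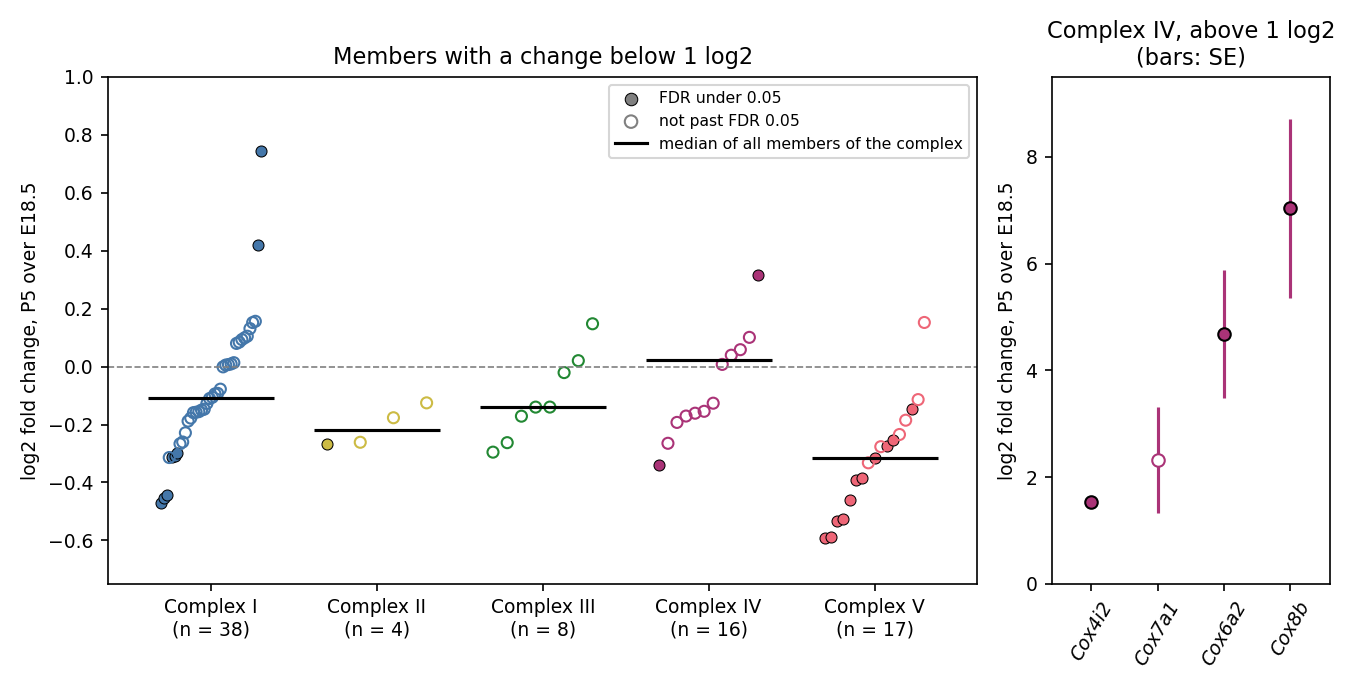
Change of each of the 83 subunit genes across birth, from E18.5 to P5, as the edgeR log2 fold change, by complex; each point is a gene, filled where its FDR is under 0.05, and the black line is the median of all genes of the complex. The left panel holds the genes with a change below 1, and the right panel holds the 4 complex IV genes above 1 with their standard errors; 16 of the 17 complex V points lie below 0.

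The catalytic head of ATP synthase, F1, is built around the alpha and beta subunits, which together bind and convert the nucleotides. *Atp5a1*, the alpha subunit (ENSMUSG00000025428), was at 977, 1072 and 979 CPM in the 3 E15.5 libraries, 829.8, 818 and 865 at E18.5, 501, 534 and 534 CPM at P5, and 633, 762 and 516 CPM at P8. Each P5 library lay below each E18.5 library, and P8 replicate 2 was closest to the embryonic range. From E18.5 to P5 *Atp5a1* fell by 0.59 on the log2 scale (standard error, SE, 0.11, edgeR FDR = 0.00029), which leaves 0.663 of the E18.5 level. *Atp5b*, the beta subunit (ENSMUSG00000025393; mm10 chr10:128083273-128090391, plus strand), was at 1337, 1447 and 1243 CPM at E15.5, then 1042, 1058 and 1132 at E18.5, 650.2, 722 and 733 CPM at P5 and 939.8, 1142 and 710.0 CPM at P8. Its P5 libraries were all under its E18.5 libraries, but P8 replicate 2 was above all 3 E18.5 libraries. The change from E18.5 to P5 was -0.53 (SE 0.13, edgeR FDR = 0.0026). Without the 3 libraries high in brown fat genes, the changes of *Atp5a1* and *Atp5b* were -0.59 and -0.55.

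The central stalk of F1 turns with the rotor and links it to the catalytic sites. *Atp5c1*, its gamma subunit, was at 217, 227 and 235 CPM at E18.5 and at 169, 178 and 191 CPM at P5, without overlap, and fell by 0.25 on the log2 scale (SE 0.086, edgeR FDR = 0.018). *Atp5d*, the delta subunit, went from 165, 157 and 159.8 CPM to 113, 129 and 122 CPM (log2 fold change -0.32, edgeR FDR = 0.029). *Atp5e*, the epsilon subunit, was at 134, 140.4 and 132 CPM at E18.5 and 98.2, 117 and 122 CPM at P5. These *Atp5e* values did not overlap, yet the change of -0.19 did not pass the test (edgeR FDR = 0.066). Without E18.5 replicate 3 the calls of *Atp5c1* and *Atp5d* were lost too, at edgeR FDR = 0.057 and 0.055. Thus 4 of 5 genes of F1 fell, beside 35.7% of all tested genes.

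The rotor ring in the membrane is made of copies of the c subunit, and 3 genes, *Atp5g1*, *Atp5g2* and *Atp5g3*, encode the same mature c protein behind different import sequences. All 3 fell from E18.5 to P5, as 35.7% of all tested genes did. *Atp5g1* (mm10 chr11:96068852-96075670, minus strand) was at 113, 127 and 104 CPM at E15.5, then 86.2, 90.8 and 96.9 at E18.5, 54.8, 64.7 and 59.6 CPM at P5 and 60.6, 63.6 and 51.9 CPM at P8. The 3 levels E15.5, E18.5 and P5 were separate from each other, and P8 overlapped P5. *Atp5g1* fell by 0.32 on the log2 scale from E15.5 to E18.5 (edgeR FDR = 0.024) and by 0.53 from E18.5 to P5 (SE 0.09, edgeR FDR = 0.00019). *Atp5g2* (chr15:102662864-102672352, minus strand) was at 213, 212 and 198 CPM at E15.5, then 223, 206 and 202 at E18.5, 128, 130.5 and 137 CPM at P5 and 126, 129.9 and 108 CPM at P8. Its embryonic libraries overlapped each other, and all 6 postnatal libraries lay under them. It fell by 0.59 from E18.5 to P5 (SE 0.075, edgeR FDR = 1.6e-05). *Atp5g3* (chr2:73908447-73911326, minus strand) was at 291, 293 and 255 CPM at E15.5, then 236, 265 and 267 at E18.5, 165, 182 and 179 CPM at P5 and 169, 175 and 148 CPM at P8, again with all postnatal libraries under all embryonic ones. It fell by 0.46 (SE 0.077, edgeR FDR = 0.00017). Over the whole span from E15.5 to P8 the 3 genes fell by 0.89, 0.70 and 0.69 on the log2 scale.

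The 150 bases upstream of the RefSeq transcript start are shown for these 3 genes, because they encode 1 protein and moved together, and for *Atp5k*, a membrane subunit of complex V whose promoter holds a match of the same kind as *Atp5g2*. The sequences are from RefSeq on GRCm38.p6, the build behind mm10, and run 5′ to 3′ toward the gene on the minus strand. Capitals mark matches to GCGCATGC or its reverse complement GCATGCGC, the core recognised by nuclear respiratory factor 1 (NRF1). The locations are chr11:96075632-96075781 for *Atp5g1*, chr15:102671048-102671197 for *Atp5g2*, chr2:73911327-73911476 for *Atp5g3* and chr5:108434400-108434549 for *Atp5k*. The *Atp5g2* stretch lies inside the Gencode gene span given above, and the *Atp5g1* stretch overlaps the end of its span. Upstream here therefore refers to the RefSeq start, which differs from the outermost Gencode start of these genes.
Atp5g1: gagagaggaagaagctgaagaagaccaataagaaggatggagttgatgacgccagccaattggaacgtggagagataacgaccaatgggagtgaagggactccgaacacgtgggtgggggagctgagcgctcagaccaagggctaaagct
Atp5g2: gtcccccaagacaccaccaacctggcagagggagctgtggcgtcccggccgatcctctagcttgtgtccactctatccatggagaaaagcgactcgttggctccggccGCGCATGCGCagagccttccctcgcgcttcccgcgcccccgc
Atp5g3: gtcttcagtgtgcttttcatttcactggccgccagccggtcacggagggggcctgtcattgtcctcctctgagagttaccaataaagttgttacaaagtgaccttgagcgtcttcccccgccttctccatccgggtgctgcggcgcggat
Atp5k: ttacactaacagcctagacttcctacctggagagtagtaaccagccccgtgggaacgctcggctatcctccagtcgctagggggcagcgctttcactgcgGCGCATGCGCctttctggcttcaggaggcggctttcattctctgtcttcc
In *Atp5g2* and *Atp5k* the capitals are 2 overlapping matches, 1 on each strand, while no match to this core stood in the *Atp5g1* and *Atp5g3* stretches. All 4 genes were lower at P5 than at E18.5 in mean CPM, *Atp5k* without passing the test (log2 fold change -0.33, edgeR FDR = 0.088).

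A promoter entry was available for 67 of the 83 genes, covering 250 bases before and 50 after the start. The NRF1 core stood in 10 of the 67 (14.9%), and in 5.38% of the 11776 tested genes with an entry. The letters CCGGAAG or CTTCCGG, the core of ETS factors such as GABP, stood in 16 of the 67 (23.9%) and in 18% of the tested genes with an entry. The YY1 letters AAGATGGC or GCCATCTT stood in 10 of the 67 (14.9%) and in 4.66%. Of the 10 genes with the NRF1 core, 1 fell from E18.5 to P5, *Atp5g2*, against 15 of the 67 with an entry and 35.7% of all tested genes. In complex V the NRF1 core stood in *Atp5l*, *Atp5k* and *Atp5g2*, the ETS core in *Atp5e*, *Atp5j*, *Atp5h*, *Atp5l* and *Atp5k*, and the YY1 letters in *Atp5f1*, *Atp5j* and *Atp5j2*. Such a match describes the letters of the window, and binding was not measured.

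The peripheral stalk holds F1 in place while the rotor turns, and 3 of its 4 genes fell across birth (35.7% of all tested genes fell). *Atp5o*, which joins the stalk to the head, was at 128, 127 and 134 CPM at E18.5 and 82.8, 102 and 94.6 CPM at P5, without overlap (log2 fold change -0.39, SE 0.11, edgeR FDR = 0.008). *Atp5f1*, the b subunit, went from 256, 279 and 267 CPM to 202, 204 and 218 CPM (log2 fold change -0.27, edgeR FDR = 0.022). *Atp5j*, subunit F6, was at 106, 113 and 111 at E18.5, 90.8, 96.8 and 93.2 CPM at P5 and 75.1, 82.3 and 73.7 CPM at P8, and these 3 time-points did not overlap. It fell by 0.15 from E18.5 to P5 (SE 0.058, edgeR FDR = 0.037) and by 0.30 from P5 to P8 (SE 0.06, edgeR FDR = 0.007). *Atp5h*, the d subunit, was at 122, 127 and 126 CPM at E18.5 and 106, 112 and 109 CPM at P5, a change of -0.11 that did not pass (edgeR FDR = 0.29). Of the 4 membrane accessory subunits, *Atp5mpl* fell from 64.2, 67.1 and 68.1 CPM to 44.4, 47.3 and 52.2 CPM (log2 fold change -0.38, edgeR FDR = 0.0078). *Atp5l* was the single complex V gene with a positive change, 0.15, at 6.18, 8.52 and 7.03 CPM before and 7.43, 7.43 and 7.86 CPM after birth (edgeR FDR = 0.36). In 16 of the 17 complex V genes every P5 library lay below every E18.5 library in CPM, which held for 42.6% of all tested genes. With the CPM divided by the TMM factors of the fit it was again 16 of 17, and 39.6% of all tested genes.

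**Figure D2:**
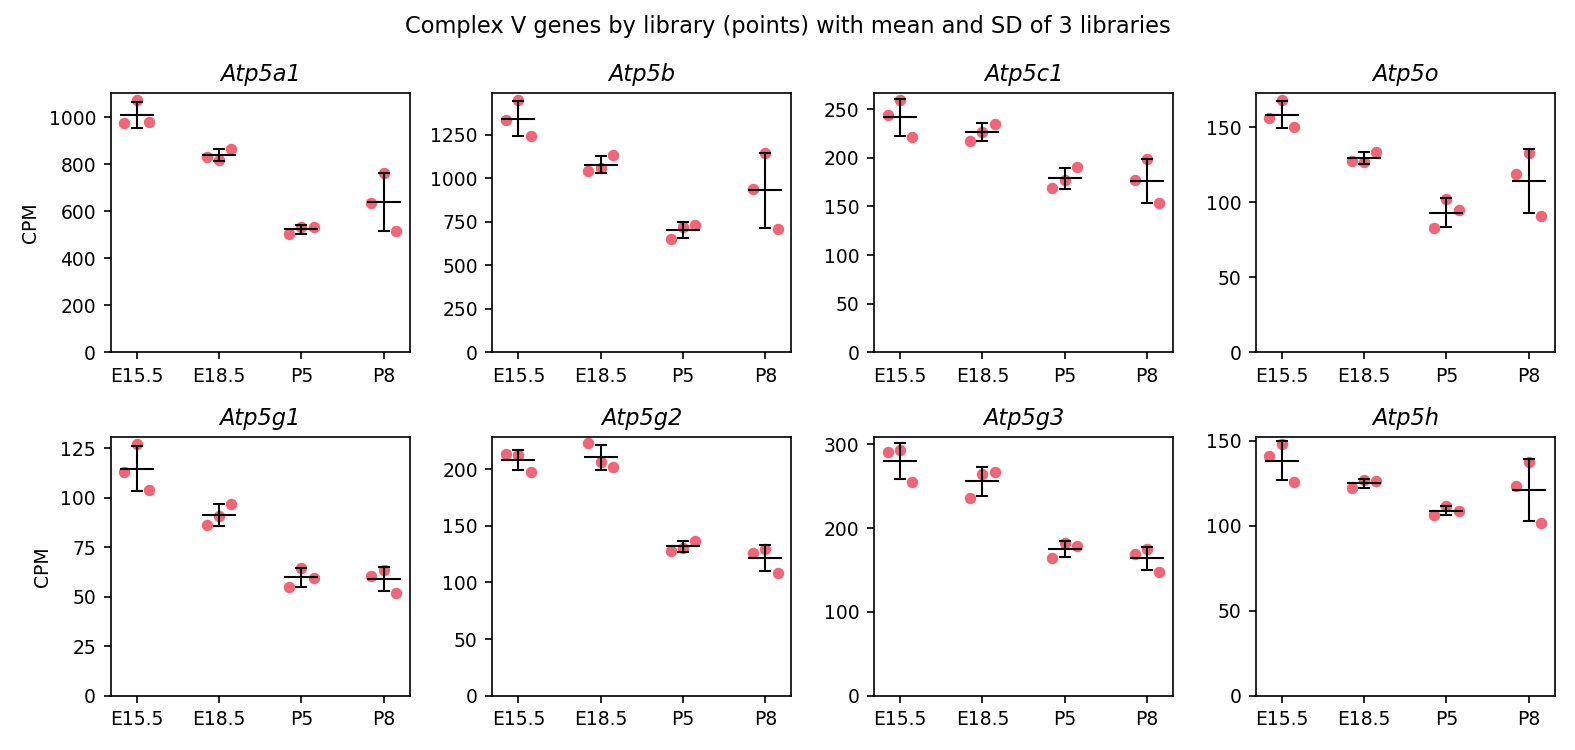
CPM of 8 complex V genes in each of the 12 libraries by time-point; points are libraries, and the bars give the mean and SD of 3. The P5 points of every panel lie below the E18.5 points, and P8 replicate 3, the rightmost point, is the lowest of its group in each panel.

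In complex I, 8 of 38 genes passed the test from E18.5 to P5, while 35.7% of all tested genes fell and 35.4% rose. The 7 nuclear core genes encode the parts of the arm that take up NADH and carry electrons through iron-sulphur clusters, and 2 of them fell, *Ndufs1* and *Ndufv2*. *Ndufs1* was at 88.5, 97 and 82.8 CPM at E15.5, then 64.5, 71 and 77 at E18.5, 47.4, 48.3 and 50.4 CPM at P5 and 61.5, 84.4 and 48.3 CPM at P8. Its P5 libraries were below all E18.5 libraries, and the P8 libraries spanned both ranges. It fell by 0.45 on the log2 scale (SE 0.15, edgeR FDR = 0.015). Without E18.5 replicate 3 neither core gene passed, at edgeR FDR = 0.057 for *Ndufs1* and 0.092 for *Ndufv2*. The core genes *Ndufs3*, *Ndufs7*, *Ndufs8* and *Ndufv1* had changes between -0.19 and -0.08 that did not pass.

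Accessory subunits surround this core and support its assembly and stability. Of the 31 genes counted here 4 fell and 2 rose (35.7% and 35.4% of all tested genes). These include *Ndufa4* and its relative *Ndufa4l2* by symbol, although the NDUFA4 protein is known as a subunit of complex IV. *Ndufa12*, which sits beside the core arm, was at 36.9, 43.1 and 41.4 CPM at E18.5 and 24, 28.6 and 29.9 CPM at P5, without overlap. It fell by 0.47 (SE 0.14, edgeR FDR = 0.0082). *Ndufa10* went from 80.2, 76.4 and 80 CPM to 49, 57.8 and 57.5 CPM (log2 fold change -0.44, SE 0.13, edgeR FDR = 0.010), and at P8 it stood at 72.9, 93 and 55.7 CPM. *Ndufc1* and *Ndufs6* also fell, by 0.31 and 0.30 on the log2 scale. Against these, *Ndufa1* rose from 25.9, 28.3 and 24.8 CPM to 31, 32.4 and 36 CPM (log2 fold change 0.42, SE 0.13, edgeR FDR = 0.014), though its call was lost without E18.5 replicate 3 (edgeR FDR = 0.053). The other riser, *Ndufa4l2*, is described with the tissue forms.

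Complex II also works as an enzyme of the citric acid cycle. *Sdhc*, which anchors it in the membrane, fell from 111, 114 and 118 CPM at E18.5 to 91.3, 85.8 and 91.3 CPM at P5, without overlap (log2 fold change -0.27, SE 0.10, edgeR FDR = 0.03), and its call was lost without E18.5 replicate 2 or 3, at edgeR FDR = 0.058 and 0.079. *Sdha*, the flavoprotein that oxidises succinate, was at 236, 247 and 228 CPM at E15.5, then 211, 205 and 210.2 at E18.5, 154, 163 and 175 CPM at P5 and 209, 279 and 172 CPM at P8. Its P5 libraries were under all E18.5 libraries, but the change of -0.26 did not pass (edgeR FDR = 0.077). From P5 to P8 *Sdha* rose by 0.40 (SE 0.12, edgeR FDR = 0.042), with overlap between P5 replicate 3 and P8 replicate 3, and without the 3 libraries high in brown fat genes this change was 0.07 (edgeR FDR = 0.76). In complex III, *Uqcrc1*, a core subunit, was at 167, 181 and 182 at E18.5, 142, 151 and 161 CPM at P5 and 209, 275 and 147 CPM at P8. The 3 P8 libraries spread further than the groups differed. *Uqcrfs1*, the Rieske iron-sulphur protein, showed the same wide P8 spread, at 105, 142 and 61.6 CPM, after 101, 108 and 105 CPM at E18.5 and 73.4, 79.1 and 88.8 CPM at P5, with a change across birth of -0.30 on the log2 scale (edgeR FDR = 0.22).

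Among the 10 common subunits of complex IV, 1 fell and 1 rose across birth (35.7% and 35.4% of all tested genes). *Cox7c* went from 117, 123 and 123 CPM at E18.5 to 79.8, 86.4 and 105 CPM at P5 (log2 fold change -0.34, SE 0.13, edgeR FDR = 0.035), without overlap, and its call was lost without E18.5 replicate 2 or 3 (edgeR FDR = 0.077 and 0.075). *Cox6c* rose from 84.6, 88.8 and 89.8 CPM to 97.1, 94.9 and 116 CPM (log2 fold change 0.31, SE 0.10, edgeR FDR = 0.016), also without overlap. *Cox4i1*, the common form of subunit 4 and the complex IV gene with the highest CPM not scaled for length, was at 225, 227 and 219 CPM at E18.5 and 208, 235 and 235 CPM at P5 (log2 fold change 0.10, edgeR FDR = 0.4). *Cox7a2l*, which encodes a factor that joins complexes III and IV into supercomplexes, was at 185, 188 and 203 CPM at P5 and 149, 159 and 146 CPM at P8, and fell by 0.36 over that interval (SE 0.08, edgeR FDR = 0.010). Without the 3 libraries high in brown fat genes the *Cox7a2l* change was -0.40 and did not pass (edgeR FDR = 0.22).

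The tissue-restricted forms held the largest changes. *Cox4i2* (ENSMUSG00000009876; chr2:152754173-152765037, plus strand), the form of subunit 4 known from lung and induced by low oxygen, was at 13.4, 11.9 and 12.2 CPM at E15.5, then 18.9, 19.9 and 16.2 at E18.5, 51.4, 48.2 and 51.1 CPM at P5 and 37.8, 39.3 and 43.4 CPM at P8. The 4 time-points did not overlap. *Cox4i2* rose by 0.56 on the log2 scale from E15.5 to E18.5 (SE 0.09, edgeR FDR = 0.0019) and by 1.54 from E18.5 to P5 (SE 0.09, edgeR FDR = 1.6e-08), and then fell by 0.34 from P5 to P8 (SE 0.08, edgeR FDR = 0.017). Without the libraries high in brown fat genes the rise across birth was 1.55, while the fall to P8 was -0.24 and did not pass (edgeR FDR = 0.51). *Ndufa4l2* (ENSMUSG00000040280; chr10:127514967-127517154, plus strand), a relative of *Ndufa4* that responds to low oxygen, was at 13.4, 14.4 and 11.4 CPM at E15.5, then 32.2, 36.5 and 23 at E18.5, 46.7, 48.2 and 49.7 CPM at P5 and 41.7, 35.3 and 39.3 CPM at P8. It rose by 1.23 from E15.5 to E18.5 (SE 0.15, edgeR FDR = 0.00066) and by 0.74 from E18.5 to P5 (SE 0.14, edgeR FDR = 0.00052), with no overlap in either step.

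The share of each tissue form was followed as its log2 ratio to the common form, tested between the 6 embryonic and the 6 postnatal libraries for 6 pairs with a two-sided exact permutation test, for which 0.0022 is the smallest p. Within 6 against 6 libraries the time-points and litters of each side are pooled. Each side holds the litters of only 2 time-points, and littermates are counted as separate units. The permutation p-values here and below therefore overstate the evidence for a change across birth. The log2 ratio of *Cox4i2* to *Cox4i1* was -3.91 ± 0.35 (SD, n = 6) in the embryonic and -2.38 ± 0.34 in the postnatal libraries, a difference of 1.53 with exact permutation p = 0.0022 and adjusted p = 0.0043. *Cox4i2* made up 5.06% of the pair at E15.5 and 7.57% at E18.5, and then 18.2% of it at P5 and 14.3% at P8. The log2 ratio of *Ndufa4l2* to *Ndufa4* was -2.77 ± 0.68 (SD, n = 6) in the embryonic and -1.42 ± 0.28 in the postnatal libraries, with the same exact permutation p of 0.0022 and adjusted p of 0.0043. For both pairs all 6 postnatal libraries were above all embryonic ones. The ratio of *Cox6b2*, the testis form, to *Cox6b1* differed by 0.14 (exact permutation p = 0.33), at 7.92 to 10.8 CPM of *Cox6b2* in all 12 libraries.

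*Cox4i2* and *Ndufa4l2* were set beside 9 genes of pericytes, the contractile cells around capillaries, which did not all move the same way. *Higd1b*, a pericyte gene, was at 2.02, 1.34 and 1.42 CPM at E15.5, then 8.44, 10.1 and 4.5 at E18.5, 33.8, 35.9 and 34.5 CPM at P5 and 24.6, 21.9 and 27.3 CPM at P8, the same order of time-points as *Cox4i2* and *Ndufa4l2*. The 9 pericyte genes summed to between 650.1 and 688.7 CPM at E15.5, then 783 and 855 at E18.5, 1684 and 1835 CPM at P5 and 1426 and 1610 CPM at P8, and none was at 0 in any library. From E18.5 to P5, 5 of the 9 rose and 3 fell (35.4% and 35.7% of all genes), the latter being *Cspg4*, *Kcnj8* and *Abcc9*. The part of a changing share of pericytes in the rise of *Cox4i2* and *Ndufa4l2* was not tested.

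*Cox8b* and *Cox7a1* are the forms of heart, skeletal muscle and brown fat. *Cox8b* was at 1.18, 1.24 and 0.118 CPM at E15.5 and 0.0821, 0.0191 and 0.0183 CPM at E18.5, the latter from 4, 1 and 1 reads. After birth it was at 1.03, 2.75 and 11.5 CPM at P5 and 31, 47.2 and 1.76 CPM at P8. All 3 P5 libraries were above all E18.5 libraries, and the highest values sat in P5 replicate 3 and P8 replicates 1 and 2, the libraries with 88.8, 231 and 498 CPM of *Ucp1*, the uncoupling protein of brown fat. The log2 fold change of *Cox8b* from E18.5 to P5 was 7.03 (SE 1.67, edgeR FDR = 0.0023), and 5.60 without those 3 libraries. As its E18.5 level rests on 6 reads, the size of the change is uncertain. P5 replicate 2, which stayed in, held 29.2 CPM of the brown fat genes, above every embryonic library. The heart and skeletal muscle genes summed to 155, 339 and 344 CPM at P5, against 63.0 to 104 CPM at E18.5. From E15.5 to P8 *Cox8b* changed by 5.04 (edgeR FDR = 0.0016). Without the 3 libraries high in brown fat genes, which left P8 with 1 library, that change was 1.13. *Cox7a1* was at 2.36, 3.03 and 0.669 CPM at E15.5, then 0.924, 0.747 and 0.476 at E18.5, 0.915, 1.94 and 7.31 CPM at P5 and 16.4, 32 and 1.45 CPM at P8, so the groups overlapped. Its change from E15.5 to P8 was 3.11 (edgeR FDR = 0.0099) with all libraries and -0.40 without the 3 high in brown fat genes (edgeR FDR = 0.65). The ratio of *Cox8b* to *Cox8a* differed by 4.62 between postnatal and embryonic libraries (exact permutation p = 0.0022, adjusted p = 0.0043), and that of *Cox7a1* to *Cox7a2* by 2.27 (exact permutation p = 0.022, adjusted p = 0.032). The size of the *Cox8b* difference depended on the pseudocount of 0.1 CPM added to each value, and was 2.84 with 1 CPM. Without the 3 libraries high in brown fat genes it was 2.88 (adjusted exact permutation p = 0.048). The remaining postnatal ratios were still above all embryonic ones. With fewer libraries the smallest possible p is larger than 0.0022, so the 2 p-values of *Cox8b* cannot be compared. Without those libraries, the *Cox7a1* ratio differed by 0.69 and its adjusted exact permutation p was 0.26.

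*Cox6a2*, the form of heart and skeletal muscle, was at 9.09, 13.1 and 0.157 CPM at E15.5, then 0.308, 0.0383 and 0.128 at E18.5, 2.81, 4.79 and 3.94 CPM at P5 and 7.9, 7.58 and 1.92 CPM at P8. The 2 high E15.5 libraries, replicates 1 and 2, had 196 and 172 CPM of the atrial myosin gene *Myh6*, against 5.84 CPM in replicate 3. The log2 fold change of *Cox6a2* from E15.5 to E18.5 was -5.54 (SE 1.21, edgeR FDR = 0.0086), and -0.02 when those 2 libraries were left out (edgeR FDR = 1). Across birth it rose by 4.69 on the log2 scale (SE 1.20, edgeR FDR = 0.0037), with all 3 P5 libraries above all E18.5 libraries, and *Myh6* was at 11.7, 9.63 and 3.17 CPM at E18.5 and 20.5, 45.1 and 26.3 CPM at P5. The *Cox6a2* to *Cox6a1* ratio differed by 2.304 between postnatal and embryonic libraries (exact permutation p = 0.071, adjusted p = 0.086). Without E15.5 replicates 1 and 2, the embryonic libraries with the highest *Cox6a2*, it differed by 4.14 (adjusted exact permutation p = 0.011). Those libraries were chosen after seeing the data, and leaving them out put all remaining embryonic ratios under all postnatal ones. That p-value is therefore no test of a rise across birth. The part of heart, muscle or brown fat RNA in the levels of *Cox6a2*, *Cox7a1* and *Cox8b* was not tested.

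**Figure D3:**
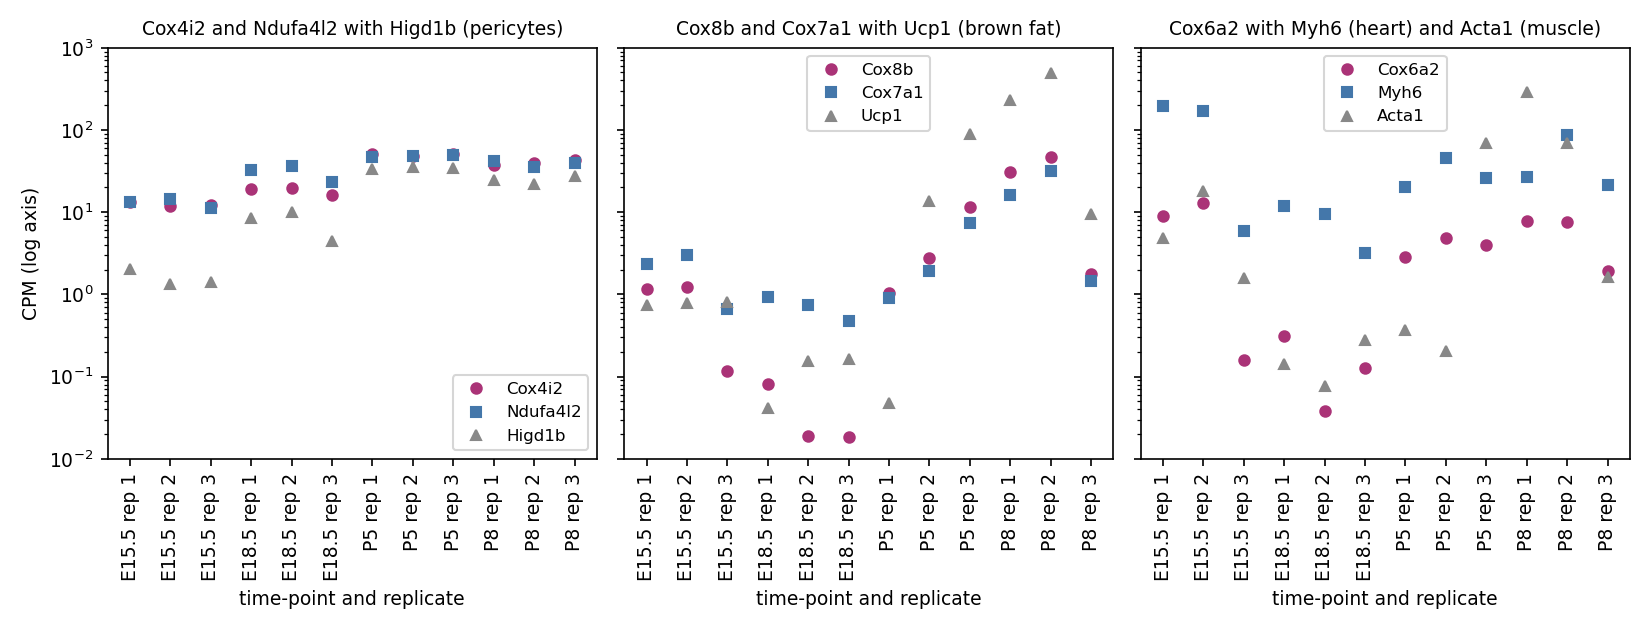
CPM on a log axis in each of the 12 libraries (rep, replicate) of *Cox4i2* and *Ndufa4l2* with the pericyte gene *Higd1b*, of *Cox8b* and *Cox7a1* with the brown fat gene *Ucp1*, and of *Cox6a2* with the heart gene *Myh6* and the muscle gene *Acta1*. The genes of the left panel rise by time-point to P5 and are lower at P8. In the other panels single libraries, such as P8 replicates 1 and 2 or E15.5 replicates 1 and 2, set the highest points. Of the 9 pericyte genes listed only *Higd1b* is drawn, and 5 rose and 3 fell across birth.

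Within the embryonic period few genes changed. From E15.5 to E18.5, 2 of the 83 rose (*Cox4i2* and *Ndufa4l2*; 11.6% of all genes rose) and 2 fell (*Atp5g1* and *Cox6a2*; 9.87% of all genes fell), with a median log2 fold change of -0.06 against -0.0084 for all genes. The number that fell was 1 without E15.5 replicate 2, E18.5 replicate 1 or E18.5 replicate 2. It was 6 and 10 without P8 replicates 2 and 3, which are outside this comparison and act only through the shared fit. Of the 4, *Ndufa4l2* and *Cox6a2* also passed a 2-fold change (3.04% of all genes). The number that fell was 12 without the libraries high in brown fat genes (8.63% of all genes) and 0 without E15.5 replicates 1 and 2 (1.6% of all genes), which leaves E15.5 with 1 library.

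From P5 to P8, 1 of the 83 rose, *Sdha* (9.75% of all genes rose), and 3 fell, *Cox4i2*, *Cox7a2l* and *Atp5j* (8.21% of all genes fell), and none passed the FDR and a 2-fold change (2.96% of all genes). The median was 0.06 on the log2 scale against -0.0012 for all genes. This comparison rested on P8 replicate 3. Without it 34 of the 83 rose, 15 in complex I, 3 in complex II, 5 in complex III, 6 in complex IV and 5 in complex V, while the share of all genes that rose was 11.8%. Without any 1 of E15.5 replicate 1 and the 3 E18.5, the 3 P5 and the other 2 P8 libraries, none rose (3.72% to 9.8% of all genes did). Leaving out the 3 libraries high in brown fat genes kept only replicate 3 at P8, and then none of the 83 passed in either direction with edgeR, where 0.153% of all genes rose and 0.032% fell. In that setting 33 of the 83 were lower and none higher at an unadjusted p under 0.05, and the median was -0.23.

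Over the whole span from E15.5 to P8, 21 genes fell and 6 rose (38.7% and 37.6% of all genes), 10 of the falling ones in complex V, 9 in complex I and 1 each in complexes II and IV. With a 2-fold change as well, 4 passed (32.3% of all genes). The median was -0.12 for the 83 genes, -0.38 for complex V and -0.02 for all genes. The number that fell was 36 without P8 replicate 2, 57 without the 3 libraries high in brown fat genes (15 of 17 in complex V) and 6 without E15.5 replicates 1 and 2, where all 6 were complex V genes, while 37.4%, 33.9% and 34.5% of all genes fell in these settings. The number that rose was 18 without P8 replicate 3 and 2 without the libraries high in brown fat genes.

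The shares of the complexes in the summed CPM of the 83 genes followed these changes. Complex V made up 45.3%, 45.9% and 46.4% of the sum at E15.5, 43.9%, 43.3% and 44.8% at E18.5, 38.1%, 38.9% and 37.1% at P5 and 38.5%, 37.9% and 39.9% at P8. The 6 postnatal libraries were all under the 6 embryonic ones, including P8 replicates 2 and 3, whose sums over the 83 genes were 9341 and 6173 CPM. Leaving out *Atp5a1* and *Atp5b*, the 2 genes with the highest CPM not scaled for length, the complex V share was still 28.1% to 28.7% in the embryonic and 22.0% to 25.7% in the postnatal libraries. The share of complex IV was 14.3% to 16.5% before and 17.5% to 19.3% after birth, and that of complex I was 23.8% to 24.9% before and 26.0% to 27.5% after. The shares add up to the whole, so a fall of 1 raises the others.

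Mitochondrial DNA itself encodes 13 subunits of complexes I, III, IV and V, which do not belong to the 83 nuclear genes. The limits of unique mapping and of the unstated strand setting apply to these 13 genes too, and their exon overlaps were not examined. From E15.5 to E18.5, 6 of the 13 rose and none fell (11.6% and 9.87% of all genes), with a median log2 fold change of 0.32. Without E15.5 replicates 1 and 2, 2 of the 13 rose (2.8% of all genes), and the median was 0.46. *mt-Nd4*, a membrane subunit of complex I, was at 866, 876 and 733 CPM at E15.5, 1069, 1192 and 1253 CPM at E18.5 and 1309, 1317 and 1400.0 CPM at P5, without overlap between neighbouring time-points, and rose by 0.51 and then by 0.28 on the log2 scale (edgeR FDR = 0.0042 and 0.018). *mt-Cytb*, the cytochrome b of complex III, was at 1819, 1874 and 1554 CPM at E15.5 and 2323, 2398 and 2480.5 CPM at E18.5 (log2 fold change 0.46, edgeR FDR = 0.011). From E18.5 to P5, 2 of the 13 rose, *mt-Nd4* and *mt-Nd6* (35.4% of all genes rose), and this number was 5 without P8 replicate 3, 1 without the libraries high in brown fat genes and 6 with DESeq2. From P5 to P8 1 fell, *mt-Nd3* (log2 fold change -0.69, edgeR FDR = 0.02).

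The ratio of the summed CPM of these 13 genes to that of the 83 nuclear genes was 1.39, 1.46 and 1.36 at E15.5, 1.85, 1.96 and 2.01 at E18.5, 2.66, 2.50 and 2.62 at P5 and 2.02, 2.11 and 2.36 at P8. The first 3 time-points rose without overlap, and P8 lay above E18.5 and under P5. Across birth the sum of the 83 genes went from 8574, 8868 and 8826 CPM to 6610, 7054 and 7483 CPM, without overlap, and that of the 13 from 15833, 17357 and 17721 CPM to 17553, 17649 and 19616 CPM, with overlap.

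**Figure D4:**
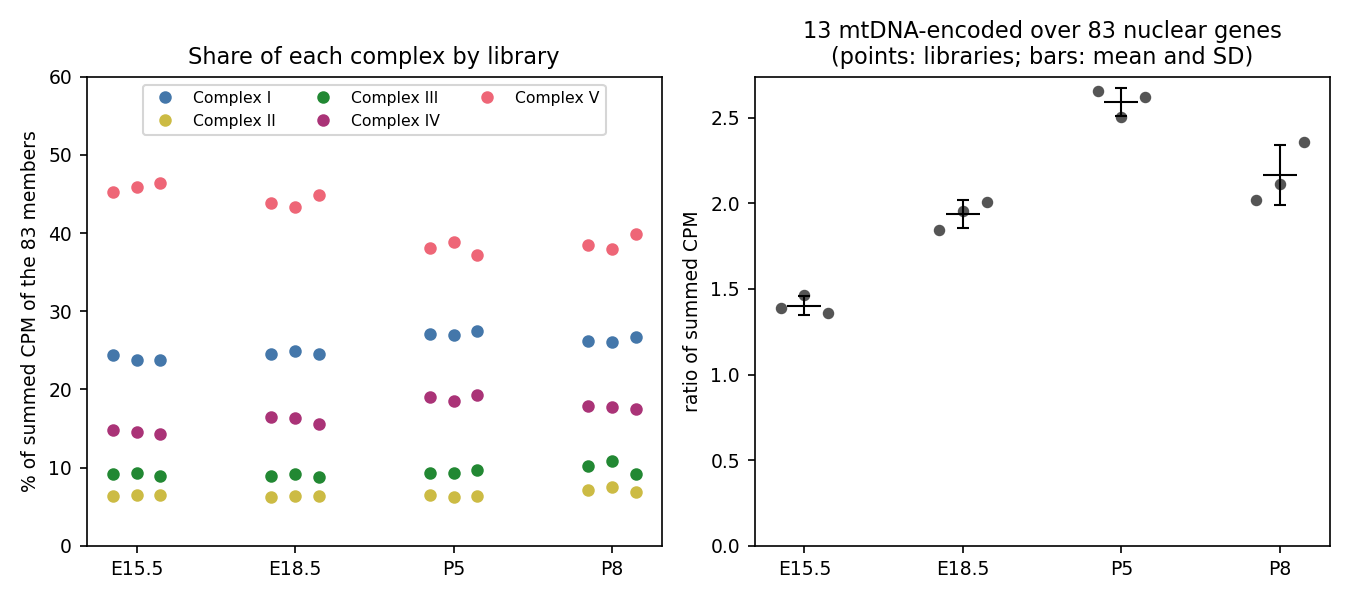
Left, the share of each complex in the summed CPM of the 83 nuclear subunit genes in each library, in percent. Right, the ratio of the summed CPM of the 13 subunit genes of mitochondrial DNA to that of the 83 nuclear genes, with the mean and SD of 3 libraries; complex V falls from 43.3% or more before birth to 39.9% or less after it, and the ratio is highest at P5.

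Genes that build, regulate and feed the complexes were examined by lists chosen for their known roles. Of 14 regulators of mitochondrial biogenesis, 10 fell and 1 rose from E18.5 to P5, beside 35.7% and 35.4% of all tested genes, with a median log2 fold change of -0.57. *Twnk*, the helicase that replicates mitochondrial DNA, fell from 29.3, 26.6 and 31.5 CPM to 11.7, 10.8 and 11.8 CPM (log2 fold change -1.26, edgeR FDR = 2.8e-07). *Tfam*, which packs mitochondrial DNA and starts its transcription, fell from 53.9, 61 and 65.6 CPM to 32.5, 34.8 and 38.1 CPM (log2 fold change -0.69, edgeR FDR = 9.1e-06). *Nrf1*, which encodes the factor named with the promoters, fell from 61.7, 63.6 and 61.2 CPM to 33.3, 35.5 and 37.5 CPM (log2 fold change -0.73, edgeR FDR = 3.9e-07). None of these 3 groups of values overlapped. *Yy1* and *Gabpa* fell by 0.40 and 0.35 on the log2 scale. *Esrra*, a nuclear receptor of energy metabolism, rose from 21.8, 18.8 and 17.5 CPM to 28, 27.1 and 29.1 CPM (log2 fold change 0.62, edgeR FDR = 0.0028).

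Assembly factors guide the subunits together without staying in the complex. Of 50 listed, 47 were tested, 23 of these (48.9%) fell and 3 rose across birth, where 35.7% of all tested genes fell and 35.4% rose, with a median log2 fold change of -0.31. The 3 risers were *Surf1*, which acts on complex IV and went from 18, 19.8 and 16.6 CPM to 26.2, 24.8 and 26.8 CPM (log2 fold change 0.61, edgeR FDR = 0.00017), *Ndufaf3* (0.35) and *Sdhaf2* (0.23). All 3 listed factors of complex V, *Atpaf1*, *Atpaf2* and *Tmem70*, fell, by 0.37, 0.51 and 0.50 on the log2 scale. Of 16 genes of protein import, chaperones and membrane organisation, 15 fell (median -0.59; 35.7% of all genes fell), and the mitochondrial chaperone *Hspd1* went from 249, 249 and 301 CPM to 92.5, 95.9 and 101 CPM (log2 fold change -1.38, edgeR FDR = 3.1e-06). Its partner *Hspe1* fell by 1.44.

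The citric acid cycle and pyruvate dehydrogenase supply the electrons that enter the chain. Of their 17 genes, 3 fell and 1 rose from E18.5 to P5, beside 35.7% and 35.4% of all genes (median log2 fold change -0.07), and 4 rose from P5 to P8 (median 0.44, with 9.75% of all genes rising), among them *Cs*, *Ogdh* and *Dlst*. All 17 were highest in P8 replicate 2 and lowest in P8 replicate 3. Without P8 replicate 3, 14 rose from P5 to P8, and without the 3 libraries high in brown fat genes none passed with edgeR, 1 was higher at an unadjusted p under 0.05 and the median was -0.02. DESeq2 called 11 higher with all libraries. The lists also held 3 subunit or carrier genes outside the symbol rule, which are not a complete set of such genes. Of these, *Ndufab1*, an accessory subunit of complex I, fell across birth (log2 fold change -0.51, edgeR FDR = 0.017). *Cyc1*, the cytochrome c1 of complex III, changed by -0.36 (edgeR FDR = 0.16) and *Cycs*, cytochrome c, by -0.09 (edgeR FDR = 0.71).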

How the data were processed

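RNA from whole mouse lungs was prepared with a TruSeq protocol and sequenced as paired ends. The authors mapped the reads uniquely to mm10 with TopHat2 2.1.1 and Bowtie2 2.3.4, counted them per Gencode vM14 gene with HTSeq 0.10.0 and deposited raw counts for 16152 genes. Their methods give a minimum of 1 CPM in 3 samples, which 15994 of these genes meet per counted read. They also deposited CPM values, counts scaled to the mapped reads of the library, and 100% of these were whole reads within 0.01. The exon inclusion values were not used, and some genes are not reported here. The 41337443 to 53901957 counted reads per library limit the precision of genes with few reads.

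Differential expression was computed here from the deposited counts with edgeR 4.0.16 (quasi-likelihood, TMM, 1 CPM in 3 libraries, 15994 genes) in R 4.3.3, in 1 fit of all 12 libraries. CPM printed here are not TMM-scaled. On counts simulated for E18.5 to P5 over 15811 genes, edgeR called 34 of 50 genes changed by 1 on the log2 scale, 21 of 50 changed by 0.5 and 3 of 50 changed by 0.3, and 3 of 15614 unchanged genes. Only 50 genes were changed at each size, while in the data 35.7% of tested genes fell and 35.4% rose. The FDR cutoff depends on that share, so the simulated numbers do not give the sensitivity of the real comparison. Form ratios used a pseudocount of 0.1 CPM and permutation tests in SciPy 1.17.1. Symbols and positions came from Gencode vM21. The subunit genes and the lists were chosen with earlier results of these data known. Named were up to 12 genes per direction and comparison, form pairs, core subunits and the extremes of each complex, and *Atp5e*, *Atp5f1*, *Atp5h*, *Atp5j2*, *Atp5k*, *Ndufb2*, *Ndufc1* and *Ndufs6*, and *Cs*, *Dlst*, *Surf1* and the other genes named from the lists beyond 4 each, were added after their values were seen. Alternatives were RLE factors, library size, no filter, DESeq2 1.42.0, a replicate block and single libraries left out.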

Additional observations from a re-analysis of the deposited data

How the results depend on the processing

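Of the 174 fold changes of named genes that passed the test, 1 changed sign in an alternative: *Cox7a1* from E15.5 to P8 was -0.40 without the libraries high in brown fat genes, an alternative chosen after seeing the data, as was leaving out E15.5 replicates 1 and 2. Without the libraries high in brown fat genes 139 of the 162 that could still be tested kept their call, and 143 of 174 did without E15.5 replicates 1 and 2. Calls were lost for 0 of the 174 with no filter on low counts, 1 with DESeq2, 3 with RLE factors and 7 with library size only. With single libraries left out, between 5 (without P8 replicate 3) and 21 (without E18.5 replicate 2) were lost. Libraries outside a comparison acted on it only through the shared fit. The cause of the changes below was otherwise not tested. From E15.5 to E18.5, the number lower was 6 with DESeq2, 12 without the libraries high in brown fat genes and 0 without those high in heart genes (2-fold: 1), and 1 to 10 with single libraries left out. From E18.5 to P5, the number lower was 36 without the libraries high in brown fat genes and 10 to 34 with single libraries left out. From P5 to P8, the number higher was 4 with RLE factors, 2 with library size only, 9 with DESeq2 and 0 without the libraries high in brown fat or in heart genes, and 0 to 34 with single libraries left out (2-fold: 0 to 2), and the number lower was 0 without the libraries high in brown fat genes. From E15.5 to P8, the number higher was 2 and the number lower 57 without the libraries high in brown fat genes, the latter was 6 without those high in heart genes, and with single libraries left out they were 4 to 18 and 15 to 36. The median of complex I from E18.5 to P5 was -0.17 with library size only, -0.17 without the libraries high in brown fat genes and -0.18 to -0.082 with single libraries left out, and that of complex II was -0.29 with library size only. The *Cox7a1* ratio differed by 0.69 without the libraries high in brown fat genes and by 1.76 to 2.71 with single libraries left out, and the *Cox6a2* ratio by 4.14 without those high in heart genes and by 1.75 to 3.09. Leaving out libraries high in brown fat or heart genes left P8 or E15.5 with 1 library, assumed to vary like the rest.

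With the replicate number as a block, the number higher from P5 to P8 was 0, and calls of 6 of 174 fold changes were lost, while from E18.5 to P5 19 fell and 6 rose as without it. The numbers share only a label: the correlation of deviations between same-numbered libraries lay between -0.35 and 0.30 over 18 pairs. Genes under 10 CPM are limited by depth: the E18.5 level of *Cox8b* rests on 6 reads.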
